A study of Mus musculus with 16 samples.

Results

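Macrophages washed out of the lungs of wild-type (WT) mice following pneumonia were compared with macrophages from WT control mice, over all genes. The members were the 4 libraries titled WT injured and the 4 titled WT control, chosen by title alone, which make up 8 of the 16 libraries of the series. The remaining 8, with 4 control and 4 injured libraries, were from mice without Toll-like receptor 3 (TLR3-KO). Per the labels' protocols, the bacterium was Klebsiella pneumoniae, a Gram-negative cause of pneumonia, given as 500 CFU in 30 µl by deep hypopharyngeal injection, with saline as the other inoculum. As treatment, the labels give "none" for controls and "following pneumonia" for injured libraries, and do not state whether the controls received saline. Mouse strain, age, sex and the time between infection and lavage are not given in the sources used here. The labels do not say whether libraries came from separate mice, so p-values measure the spread between libraries only. For tests of single genes that spread was estimated from all 16 libraries, the TLR3-KO libraries included.

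Alveolar macrophages live on the air side of the lung surface, where they clear surfactant lipid, inhaled particles and bacteria. During bacterial pneumonia they sense the bacterium, release cytokines and chemokines, and share the airspace with neutrophils and monocytes that arrive from the blood. Their lipid load ties them closely to sterol metabolism: when sterol in the endoplasmic reticulum is low, the SREBP transcription factors are cleaved and turn on the genes of cholesterol synthesis and uptake. Interferons released by infected or stimulated cells turn on antiviral and antibacterial effector genes through STAT and IRF factors, and the SOCS proteins switch such cytokine signals off again.

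The 8 WT libraries held 36199851 to 59640251 counts, within the 29667102 to 59640251 counts of all 16. Levels are given below as CPM (counts relative to library size) scaled by TMM, a normalization to the bulk of genes, with factors of 0.896 to 1.05 in WT. Tlr3 was counted at 2.33 to 4.73 CPM in the WT libraries and at 0.278 to 0.740 CPM in the TLR3-KO libraries, as labelled. Xist, a transcript of female cells, was at most 0.0654 CPM in every WT library but at least 20.1 CPM in TLR3-KO controls 1 to 3, so sex could differ within the comparisons that use those controls and not within WT. Macrophage identity was checked from its markers: the summed level of 27 alveolar macrophage genes was 43222 to 52006 CPM per library in controls and 43657 to 55071 CPM in injured libraries, on library totals. The 4 WT controls did not form 1 group, since controls 1 and 2 lay apart from the rest on the first principal component, which held 31.1% of the variance among WT libraries. Controls 3 and 4 lay apart from each other on the second component (25.1%), at -52.9 and -0.21, with injured 1 at -29.7. WT injured 1 stood apart from the other injured libraries in several gene lists, as given beside each.

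Few single genes separated the 2 groups. The quasi-likelihood test of edgeR, with Benjamini-Hochberg adjustment at a threshold of 0.05, called 2 of 12455 genes (0.0161%), and both were higher in injured libraries. These were Nr1d1, a repressor of the circadian clock, and Socs2, a suppressor of cytokine signalling. A further view used the unadjusted p: 1338 genes (10.7%) had an unadjusted p under 0.05, of which 784 (6.29% of those tested) were higher and 554 (4.45%) lower. For 251 genes (2.02%) every injured library lay above every control library, and for 287 genes (2.3%) every injured library lay below. On CPM by library totals those counts were 477 (3.83%) and 85 (0.682%), so the split between directions depends on the scaling. Counts of list members below are read against these shares, and a member with an unadjusted p under 0.05 did not thereby pass the test.

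**Figure D1:**
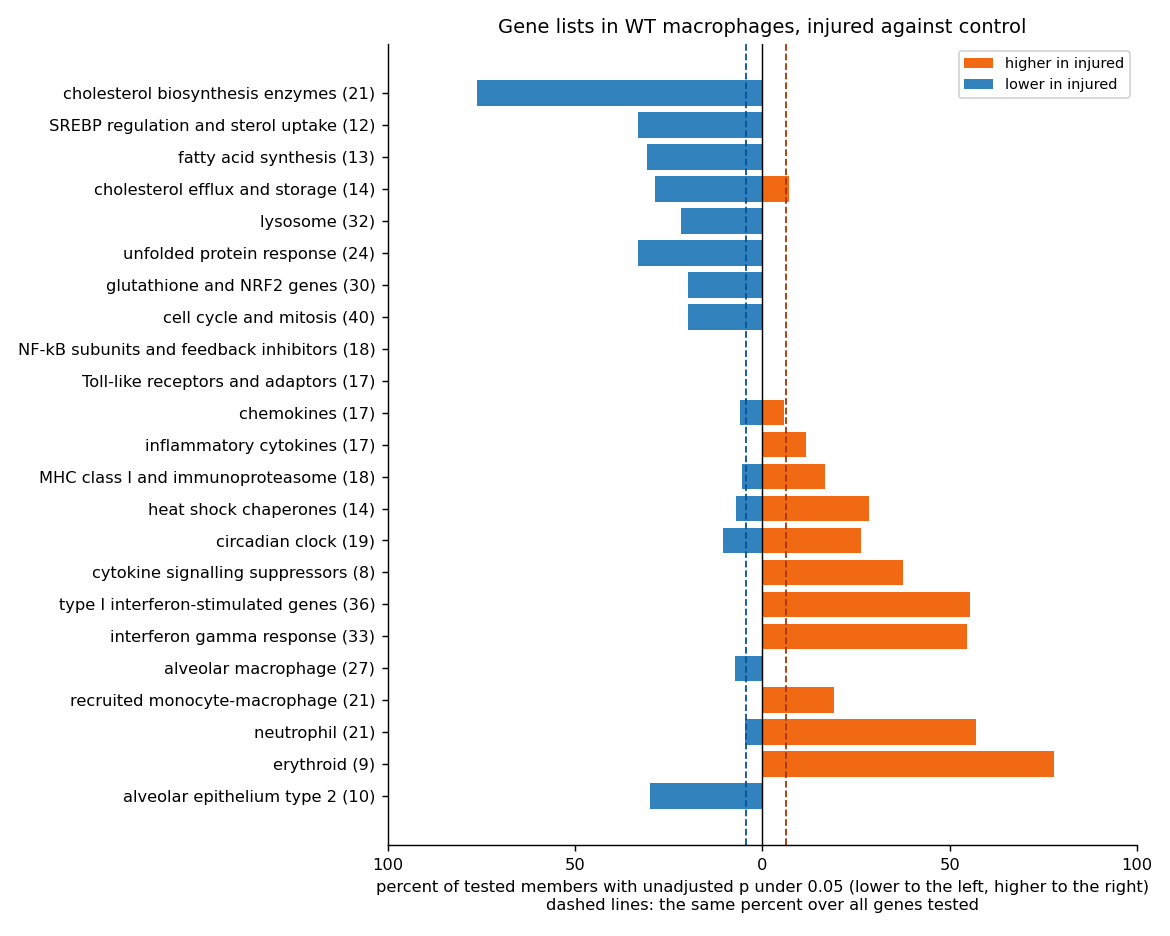
Percent of the tested members of each gene list with an unadjusted p under 0.05 in WT injured against control libraries, lower to the left and higher to the right, with the number of tested members in brackets. Dashed lines mark the same percent over all 12455 genes (4.45% lower, 6.29% higher). Cholesterol biosynthesis extends furthest to the left, with 16 of 21 members. Erythroid markers, neutrophil markers, the type I interferon-stimulated genes and the interferon gamma response extend far to the right.

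Nr1d1 encodes REV-ERB alpha, a nuclear receptor that represses Arntl and, in macrophages, some inflammatory genes. The gene lies on the minus strand at chr11:98767932-98775333 (mm10). Its level was 11.9, 12.4, 8.63 and 13 CPM in WT controls 1 to 4 and 32.3, 25.1, 28.8 and 37.5 CPM in WT injured 1 to 4. Every injured library lay above every control, with control 3 the lowest and injured 4 the highest library. Mean levels of Nr1d1 were 11.49 ± 1.96 and 30.9 ± 5.25 CPM (SD, n = 4 each), a log2 fold change of 1.43 (SE 0.21, edgeR quasi-likelihood adjusted p = 0.047). In TLR3-KO libraries the log2 fold change of Nr1d1 was 1.10 (SE 0.21, edgeR adjusted p = 0.0363), and the difference between genotypes, 0.33, had an adjusted p of 0.521 in the same edgeR fit.

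The other clock genes were mixed in direction. Of the 22 members of the clock list 19 had counts enough to be tested. Of these, 5 were higher and 2 lower at an unadjusted p under 0.05. The list's median log2 fold change was 0.11 against 0.01 over all genes. The counts depended on the controls: with controls 3 and 4 alone 5 were higher and 0 lower, with a median of 0.31. With controls 1 and 2 alone 2 were higher and 7 lower, with a median of 0.08. Dbp, an output gene of the clock, was at 1.18, 1.37, 1.36 and 1.36 CPM in controls and at 1.92, 2.84, 2.77 and 3.07 CPM in injured libraries, with no overlap. Per2, a repressor in the core loop, was at 17.1, 15.8, 5.58 and 7.08 CPM in controls and at 17.5, 21.2, 25.9 and 19.2 CPM in injured libraries, so control 1 almost reached injured 1. The log2 fold change of Per2 was 1.72 with controls 3 and 4 alone and 0.35 with controls 1 and 2 alone. Arntl, which drives the loop, was at 25.2, 27.4, 22.7 and 19.9 CPM in controls and at 16.9, 15.5, 16.6 and 20.9 CPM in injured libraries. Arntl was thus lower in injured 1 to 3 while injured 4 overlapped the controls. Rora, an activator of Arntl that competes with REV-ERB alpha for the same DNA element, was at 17.8 to 21.0 CPM in controls and at 11.6 to 15.9 CPM in injured libraries, with no overlap. Log2 fold changes were 1.01 for Dbp, 0.88 for Per2, -0.44 for Arntl and -0.44 for Rora, with edgeR quasi-likelihood adjusted p-values of 0.188, 0.334, 0.298 and 0.323. The log2 fold change of Per1 was 0.41 in WT (unadjusted p = 0.0305, edgeR) and -0.39 in TLR3-KO, and that of Arntl was -0.44 in WT and 0.34 in TLR3-KO. The unadjusted edgeR p of the difference between genotypes was 0.005 for Per1 and 0.0023 for Arntl, and the adjusted p was 0.23 for both. The hour of day at which the mice were sampled is not among the labels.

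The element that REV-ERB alpha and ROR alpha share was searched as TAGGTCA on both strands of the 300-base RefSeq promoter windows (250 bases before to 50 after the start site, GRCm38.p6). It was found in 2 of 15 clock genes with a window, Arntl and Nfil3, against 2.24% of all tested genes with one. The stretch of Arntl is shown because Arntl is the main target of Nr1d1 in the clock, with the match in capitals. It lies 30 bases after the annotated start on the plus strand, at chr7:113207530-113207558.
Arntl: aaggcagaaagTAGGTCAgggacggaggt

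**Figure D2:**
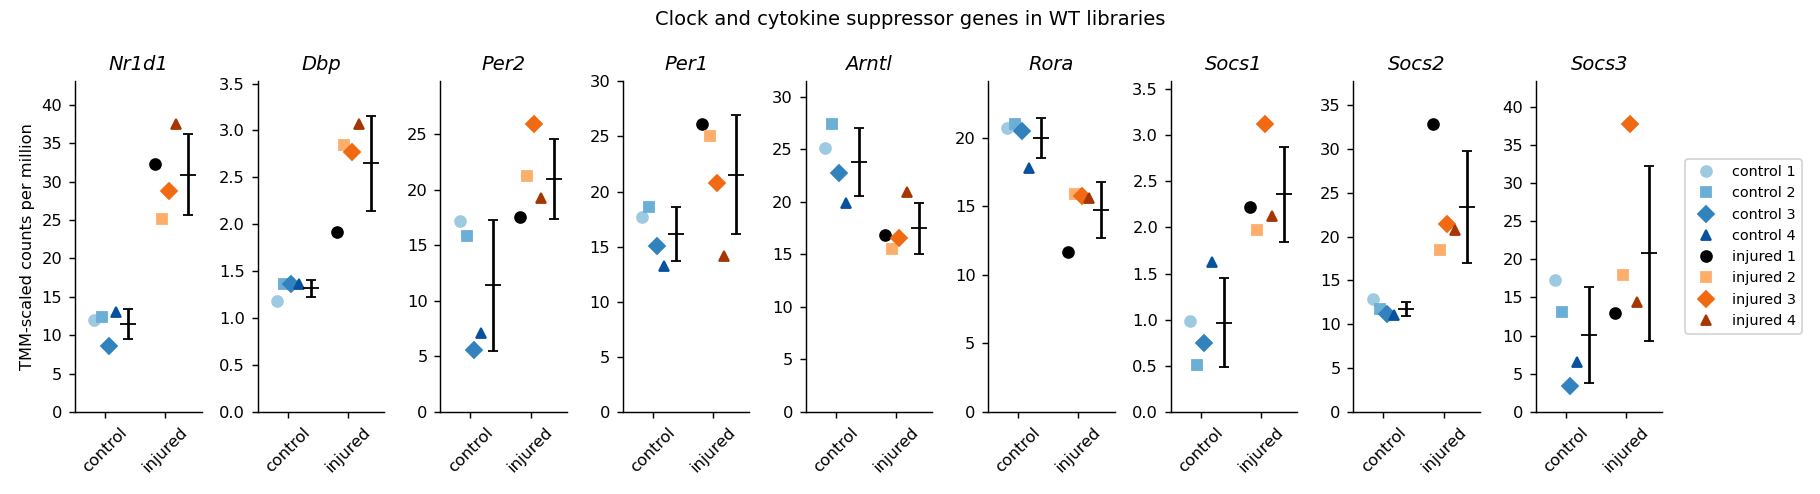
Level of 6 clock genes and 3 SOCS genes in each WT library, as TMM-scaled CPM on a linear axis from 0, with the mean and SD (n = 4) beside each group. Nr1d1, Dbp and Socs2 are separated between groups without overlap, while Per1, Arntl and Socs3 overlap in 1 or more libraries.

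Socs2 was the other gene that rose. SOCS proteins bind activated cytokine receptors or Janus kinases and end the signal; Socs2 is best known as the brake on growth hormone signalling through STAT5. Located on the minus strand at chr10:95385362-95417180 (mm10), it was counted at 12.9, 11.7, 11.2 and 11.1 CPM in controls and at 32.8, 18.5, 21.4 and 20.8 CPM in injured libraries. The controls lay close together, every injured library was above them, and injured 1 was far above the other 3. Means of Socs2 were 11.7 ± 0.84 and 23.4 ± 6.41 CPM (SD, n = 4 each), with a log2 fold change of 0.99 (SE 0.15, edgeR quasi-likelihood adjusted p = 0.047). Without injured 1 the log2 fold change of Socs2 was 0.78. Both calls sit at the threshold: with robust estimation in the same edgeR fit the adjusted p of Nr1d1 and of Socs2 was 0.0501. Neither was called without WT control 1, 2 or 3 or without WT injured 3 or 4, where the edgeR adjusted p of Nr1d1 was 0.0717 to 0.208; over all settings tried it was 2.388e-06 to 0.509 for Nr1d1 and 1.312e-05 to 0.96 for Socs2.

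Socs1, the inhibitor of interferon signalling that interferon itself turns on, was low at 0.991, 0.506, 0.745 and 1.63 CPM in controls and at 2.22, 1.97, 3.12 and 2.13 CPM in injured libraries. Every injured library was above every control for Socs1. Socs3, which limits signals of the interleukin 6 family, was at 17.3, 13.2, 3.37 and 6.49 CPM in controls and at 13, 18.0, 37.7 and 14.4 CPM in injured libraries. Controls 1 and 2 overlapped injured 1 and 4 for Socs3. Fold changes on the log2 scale were 1.29 for Socs1 (SE 0.46) and 1.04 for Socs3 (SE 0.48), with edgeR quasi-likelihood adjusted p-values of 0.332 and 0.453. Of the 8 members of the family, all tested, 3 were higher and 0 lower at an unadjusted p under 0.05, and the median log2 fold change was 0.05. With controls 3 and 4 alone 3 were higher and 0 lower, the median was 0.63 and the log2 fold change of Socs3 was 2.07. With controls 1 and 2 alone 2 were higher and 1 lower, the median was 0.10 and the value for Socs3 was 0.45.

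Cholesterol biosynthesis was the list with the most members lower in injured libraries at an unadjusted p under 0.05. All 21 enzymes of the list were tested, 16 were lower and 0 higher at an unadjusted p under 0.05 (4.45% of all genes were lower), and 14 were below every control in every injured library (2.3% of all genes). The median log2 fold change of the 21 was -0.70, against 0.01 over all genes, and single members lay between -0.87 and 0.09. None passed the adjusted p in the edgeR fit. Injured 1 was the lowest injured library for 17 of the 21 enzymes. Without injured 1 the median was -0.56 and 16 enzymes were again lower at an unadjusted p under 0.05. The count was 15 with controls 3 and 4 alone and 14 with controls 1 and 2 alone.

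Along the pathway, Hmgcs1 makes the HMG-CoA from which mevalonate is formed. It was counted at 832, 779, 819 and 698 CPM in controls and at 326, 547, 492 and 480.2 CPM in injured libraries. Idi1, which isomerizes the isoprene units, was at 465, 448, 623 and 464 CPM in controls and at 171, 373, 336 and 255 CPM in injured libraries. For both, the highest injured library was below the lowest control, and control 3 stood above the other controls for Idi1. Fdft1, squalene synthase and the first step committed to sterols, was at 239.9, 239, 268 and 208 CPM in controls and at 94.4, 172, 141 and 141 CPM in injured libraries. Sqle, squalene epoxidase and a rate-limiting step, was at 463, 447, 429.8 and 371 CPM in controls and at 163, 305, 258 and 264 CPM in injured libraries. Both squalene enzymes thus had no overlap, with injured 1 at the bottom. On the log2 scale the fold changes were -0.76 for Hmgcs1 (SE 0.14), -0.82 for Idi1 (SE 0.22), -0.80 for Fdft1 (SE 0.15) and -0.79 for Sqle (SE 0.15). Their edgeR quasi-likelihood adjusted p-values were 0.0608, 0.202, 0.0608 and 0.0649.

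Later steps, which make lanosterol and turn it into cholesterol, were lower as well. Lss, which closes the sterol rings, was at 99.7 to 133 CPM in controls and at 35.7, 90.2, 72.8 and 64.6 CPM in injured libraries. Cyp51, the lanosterol demethylase, was at 718, 659.6, 689 and 563 CPM in controls and at 305, 476, 420.4 and 412 CPM in injured libraries. Sc4mol, the sterol C4-methyl oxidase now named Msmo1, was at 514, 493, 549 and 396 CPM in controls and at 238, 354, 299 and 317 CPM in injured libraries. In all of these every injured library was below every control. Hsd17b7, the ketoreductase of the same C4-demethylation, was at 142, 126, 129 and 107 CPM in controls and at 49.6, 83.6, 81.5 and 68.7 CPM in injured libraries. Mean levels of Hsd17b7 were 126 ± 14.6 and 70.9 ± 15.6 CPM (SD, n = 4 each), so the injured mean was 56.2% of the control mean. The log2 fold changes were -0.76 for Lss (SE 0.22), -0.70 for Cyp51 (SE 0.12), -0.69 for Sc4mol (SE 0.12) and -0.83 for Hsd17b7 (SE 0.14), with edgeR quasi-likelihood adjusted p-values of 0.224, 0.0569, 0.0608 and 0.0569.

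**Figure D3:**
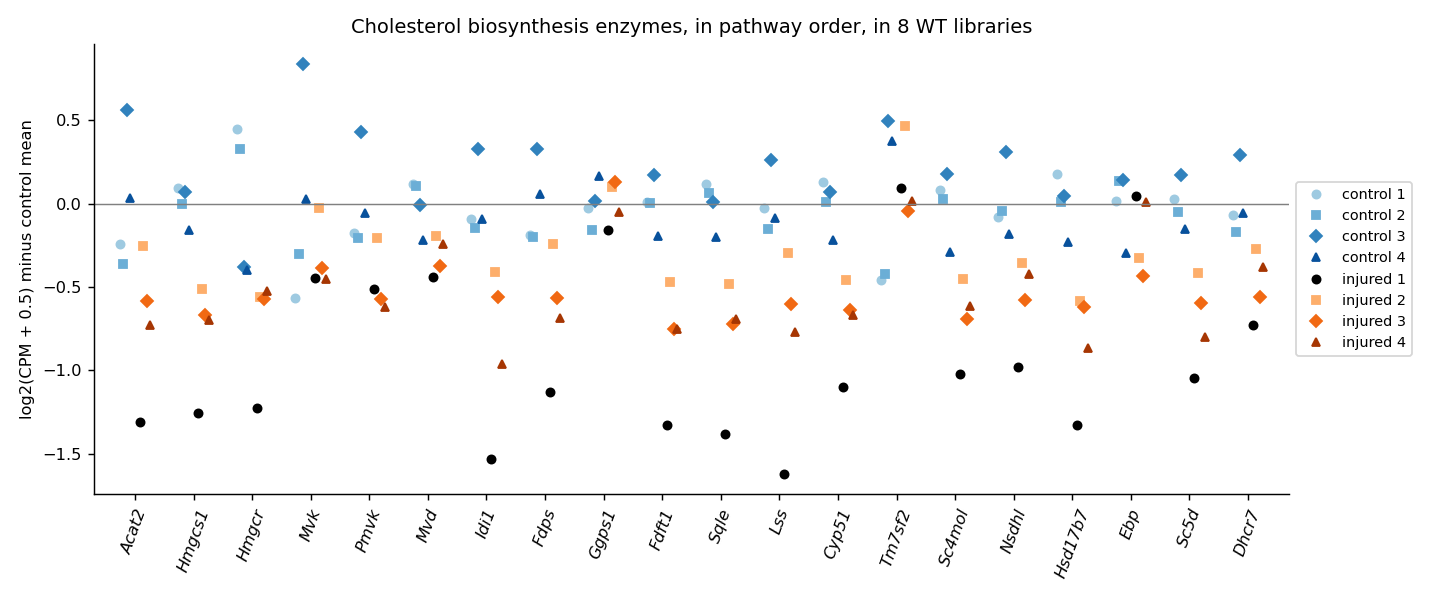
Cholesterol biosynthesis enzymes, 20 of the 21 in the list, in pathway order in the 8 WT libraries, as log2(CPM + 0.5) minus the mean of the 4 controls, with 1 point per library. Injured libraries lie below the control mean for most enzymes, injured 1 (black) is the lowest injured library for most (17 of 21 in the list), and Ggps1, Tm7sf2 and Ebp are among those that overlap the controls.

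Promoter sequence was set beside these levels, because the sterol genes are textbook targets of SREBP2 acting with NF-Y. Of the 21 tested enzymes, 16 had a RefSeq window. The NF-Y box CCAAT, searched on both strands, was in 15 of the 16 (93.8%), against 43.1% of tested genes with a window and 41.1% of all 27025 genes with one. It was also in 13 of 15 clock genes (86.7%). The sterol element TCACCCCA, searched on both strands, was in 1 of 16, Hmgcs1, against 1.71% of tested genes. CACCCCAC, which shares 7 letters with TCACCCCA, was in 2 of 16, and the longer form of it with AT in front was in 0 of 16. The 250 bases upstream of Hmgcs1 (chr13:119690101-119690350, plus strand) are shown because they hold the sterol element with 3 CCAAT boxes, all in capitals and the latter written as ATTGG on this strand.
Hmgcs1: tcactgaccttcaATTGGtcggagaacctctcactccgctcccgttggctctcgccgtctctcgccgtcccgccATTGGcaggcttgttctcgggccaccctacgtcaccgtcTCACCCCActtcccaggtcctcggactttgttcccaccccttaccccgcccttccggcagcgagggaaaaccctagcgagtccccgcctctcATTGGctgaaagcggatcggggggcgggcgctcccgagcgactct
Stretches around the CCAAT box of 5 further enzymes with no overlap are shown for comparison, each 5′ to 3′ on the gene's strand with the box in capitals. They lie at chr5:4104698-4104751 (minus strand), chr1:169969341-169969395 (minus), chr8:64733709-64733763 (minus), chr13:8885536-8885590 (plus) and chr10:76531518-76531572 (plus), in the order printed.
Cyp51: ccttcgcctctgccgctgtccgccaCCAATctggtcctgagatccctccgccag
Hsd17b7: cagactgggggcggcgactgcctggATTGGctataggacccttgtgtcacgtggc
Msmo1: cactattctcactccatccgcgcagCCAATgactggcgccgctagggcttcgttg
Idi1: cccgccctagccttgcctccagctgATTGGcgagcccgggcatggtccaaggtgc
Lss: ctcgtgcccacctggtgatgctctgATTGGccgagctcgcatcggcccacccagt
The box began 29, 165, 160, 45 and 62 bases upstream of the start site in these 5. A match is a description of the letters and not a measured binding site.

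Genes that sense sterol or bring it in were lower by less. In the list of SREBP regulation and sterol uptake, 4 of 12 tested members were lower and 0 higher at an unadjusted p under 0.05, with a median log2 fold change of -0.26. Stard4, which carries cholesterol between membranes, was at 49.2, 47.0, 49.5 and 42.1 CPM in controls and at 25.8, 34.3, 32.5 and 30.6 CPM in injured libraries. Insig1, which holds SREBP in the endoplasmic reticulum and is itself an SREBP target, was at 404, 358, 339.8 and 295 CPM in controls and at 249, 286, 260.3 and 239 CPM in injured libraries. Neither gene overlapped between groups, with control 4 the lowest control for both. Srebf2, which encodes SREBP2, was at 349, 332, 202 and 282 CPM in controls and at 148, 213, 204 and 221 CPM in injured libraries, where control 3 overlapped the injured range. Log2 fold changes were -0.61 for Stard4 (SE 0.11), -0.43 for Insig1 (SE 0.11), -0.56 for Srebf2 (SE 0.17) and -0.28 for Npc1 (SE 0.13), the lysosomal cholesterol exporter. The edgeR quasi-likelihood adjusted p-values were 0.0608, 0.197, 0.24 and 0.448.

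Neighbouring lipid pathways held smaller shares. For fatty acid synthesis, 4 of 13 tested members were lower and 0 higher at an unadjusted p under 0.05, and 1 of 13 without injured 1. Fasn, fatty acid synthase, was at 284, 260.0, 146 and 179 CPM in controls and at 69.7, 157, 158 and 164 CPM in injured libraries, with the groups overlapping and injured 1 far below the other injured libraries. Acly, which makes cytosolic acetyl-CoA, was at 464 to 660.4 CPM in controls and at 280.3 to 518 CPM in injured libraries, also with overlap. Elovl1, an elongase of long fatty acids, was at 265 to 305 CPM in controls and at 224 to 259 CPM in injured libraries, without overlap. For cholesterol efflux and storage, 1 of 14 was higher and 4 lower at an unadjusted p under 0.05. Cyp27a1, which makes 27-hydroxycholesterol, was the 1 that was higher, at 3.12, 2.96, 3.88 and 3.74 CPM in controls and 6.34, 6.17, 4.12 and 4.80 CPM in injured libraries. Lipa, the lysosomal lipase that frees cholesterol, was at 2536 to 3126 CPM in controls and at 1273 to 2235 CPM in injured libraries, and Soat1, which re-esterifies it, at 370.2 to 421 and 226 to 353 CPM. Lpl, a lipase that is high in alveolar macrophages, was at 5972 to 6777 CPM in controls and at 4654 to 5574 CPM in injured libraries. None of Cyp27a1, Lipa, Soat1 and Lpl overlapped between groups, with edgeR quasi-likelihood adjusted p-values of 0.2, 0.197, 0.253 and 0.197.

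Type I interferon-stimulated genes were higher in 3 of the 4 injured libraries and varied widely among them. Of 37 members 36 were tested, of which 20 were higher and 0 lower at an unadjusted p under 0.05 (6.29% of all genes were higher), 9 did not overlap between groups (2.02% of all genes), and none passed the adjusted p. The median log2 fold change was 0.61. Injured 1 was the lowest injured library for 26 of the 36 and lay above all controls for 12, whereas injured 2, 3 and 4 lay above all controls for 26, 28 and 28. Without injured 1 the count was 23 of 36. It was 19 with controls 3 and 4 alone and 12, with 1 lower, with controls 1 and 2 alone.

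Some members were above the controls in every injured library, injured 1 included. Xaf1, a pro-apoptotic factor, was at 1.70, 1.24, 1.23 and 1.76 CPM in controls and at 3.78, 4.30, 3.77 and 3.46 CPM in injured libraries. Zbp1, a sensor of left-handed nucleic acid, was at 6.64, 7.56, 3.65 and 5.58 CPM in controls and at 11.5, 14.2, 11.8 and 14.9 CPM in injured libraries. In both, the injured libraries stood close together above the controls. Isg20, an exonuclease, was at 4.56, 4.07, 5.06 and 5.64 CPM in controls and at 8.69, 13.5, 16.3 and 9.95 CPM in injured libraries. Irf7, the factor that amplifies interferon production, was at 5.18, 8.58, 5.34 and 10.1 CPM in controls and at 10.4, 22.9, 24.2 and 15.4 CPM in injured libraries. Injured 1 was the lowest injured library for Isg20 and Irf7 and, for Irf7, barely above control 4. Fold changes on the log2 scale were 1.36 for Xaf1 (SE 0.29), 1.16 for Zbp1 (SE 0.30), 1.33 for Isg20 (SE 0.32) and 1.32 for Irf7 (SE 0.46), with edgeR quasi-likelihood adjusted p-values of 0.145, 0.197, 0.193 and 0.315.

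Others had larger fold changes but left injured 1 among the controls. Oas2, which makes the messenger that activates RNase L, was at 0.411, 0.430, 0.103 and 0.641 CPM in controls and at 0.537, 4.00, 9.34 and 2.16 CPM in injured libraries. Rsad2, viperin, was at 8.57, 8.40, 2.34 and 7.64 CPM in controls and at 8.43, 42.3, 58.2 and 26.9 CPM in injured libraries. Ifit1, which binds foreign RNA caps, was at 7.69, 6.86, 1.52 and 4.38 CPM in controls and at 6.95, 20.7, 26.3 and 12.9 CPM in injured libraries. For all of these injured 1 was inside the control range while injured 3 was highest and control 3 lowest. Oasl2, a relative of the OAS enzymes, was at 0.771 to 2.52 CPM in controls and at 2.25, 13.7, 16.9 and 9.33 CPM in injured libraries. Rtp4, a receptor chaperone that interferon turns on, was at 0.771 to 2.68 CPM in controls and at 3.60, 12, 17.0 and 6.40 CPM in injured libraries. Injured 1 lay inside the control range for Oasl2 and just above it for Rtp4. Log2 fold changes were 3.33 for Oas2 (SE 0.83), 2.33 for Rsad2 (SE 0.78), 1.70 for Ifit1 (SE 0.63), 2.39 for Oasl2 (SE 0.61) and 2.21 for Rtp4 (SE 0.60), with edgeR quasi-likelihood adjusted p-values of 0.197, 0.284, 0.355, 0.197 and 0.202.

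Genes of the interferon gamma response held a similar share. Of 34 members 33 were tested, of which 18 were higher and 0 lower at an unadjusted p under 0.05, 5 did not overlap, and the median log2 fold change was 0.75. Injured 1 was the lowest injured library for 28 of the 33, and without it 22 were higher at that p. The count was 21 with controls 3 and 4 alone and 13, with 3 lower, with controls 1 and 2 alone. Gbp7, a guanylate-binding protein that attacks the vacuoles of intracellular microbes, was at 16.5, 16.7, 8.27 and 15.6 CPM in controls and at 21.6, 22.3, 30.8 and 34.2 CPM in injured libraries. Psmb9, an immunoproteasome subunit, was at 23.1, 21.9, 19.9 and 20.3 CPM in controls and at 32.6, 27.5, 26.0 and 31.5 CPM in injured libraries. Both had no overlap, and for Psmb9 injured 1 was the highest library. Gbp9 was at 0.636, 0.506, 0.206 and 1.5 CPM in controls and at 1.18, 4.49, 5.61 and 4.29 CPM in injured libraries, with injured 1 inside the control range. Tgtp2, an immunity-related GTPase whose reads may be shared with its near-identical copy Tgtp1, was at 0.0257 to 0.168 CPM in controls and at 0.281 to 1.34 CPM in injured libraries. The fold change of Tgtp2 thus rests on few control counts. Serpina3g, a protease inhibitor, was at 0.154 to 0.329 CPM in controls and at 0.281, 1.30, 0.589 and 4.63 CPM in injured libraries, so injured 4 held most of the difference. Iigp1 was at 0 CPM in controls 1 and 3 and at most 1.28 CPM, in injured 4. Log2 fold changes were 0.93 for Gbp7 (SE 0.25), 0.46 for Psmb9 (SE 0.12), 2.46 for Gbp9 (SE 0.60), 3.18 for Tgtp2 (SE 0.82) and 2.80 for Serpina3g (SE 0.72). The edgeR quasi-likelihood adjusted p was 0.195 for Gbp9 and 0.197 for the other 4.

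**Figure D4:**
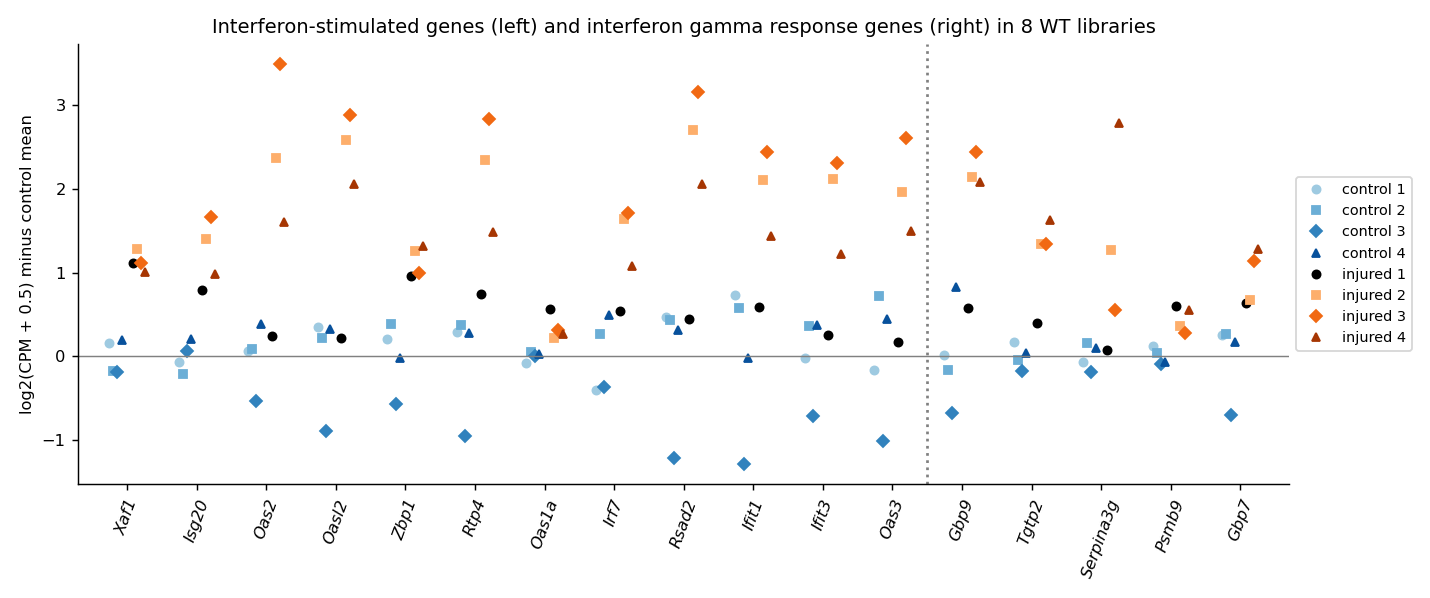
Members of the type I interferon list (left of the dotted line) and of the interferon gamma list (right) in the 8 WT libraries, as log2(CPM + 0.5) minus the mean of the 4 controls, with 1 point per library. Injured 2, 3 and 4 (orange and brown) lie above the controls for nearly every gene shown, injured 1 (black) lies near or inside the control range for Oas2, Rsad2, Ifit1 and Serpina3g, and control 3 is often the lowest control.

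The interferon-stimulated response element was searched on both strands as GAAA, then 2 bases of any kind, then GAAA, since ISGF3 and the IRF factors bind that sequence. It was in 14 of 26 type I list genes with a RefSeq window (53.8%) and in 11 of 23 interferon gamma list genes (47.8%), against 3.76% of tested genes with a window and 3.99% of all genes with one. The STAT element TTCNNNGAA, searched on both strands, was in 11 of 23 interferon gamma genes (47.8%) and 7 of 26 type I genes (26.9%), against 8.32% of tested genes; its GAA can overlap a match of the first motif. The upstream 250 bases of Rsad2 (chr12:26456453-26456702, minus strand) are shown as the gene with a wide spread among injured libraries, with the element in capitals, here in the orientation that reads TTTC.
Rsad2: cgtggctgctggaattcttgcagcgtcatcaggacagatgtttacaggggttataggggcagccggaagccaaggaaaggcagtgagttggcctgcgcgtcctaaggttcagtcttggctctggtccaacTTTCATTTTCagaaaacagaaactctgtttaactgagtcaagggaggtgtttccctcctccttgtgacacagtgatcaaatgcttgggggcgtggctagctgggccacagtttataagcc
Shorter stretches with the element in capitals are given for 6 genes that differ in how injured 1 behaved: it lay inside the control range for Ifit1, Ifit3 and Oas3 and above all controls for Oas1a, Gbp7 and Socs1. Their positions, in the order printed, are chr19:34640765-34640814 (plus strand), chr19:34583353-34583402 (plus), chr5:120777705-120777754 (minus), chr5:120907526-120907565 (minus), chr3:142530263-142530312 (plus) and chr16:10785590-10785639 (minus).
Ifit1: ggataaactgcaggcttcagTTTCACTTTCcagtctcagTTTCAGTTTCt
Ifit3: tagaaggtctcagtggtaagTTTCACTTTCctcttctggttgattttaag
Oas3: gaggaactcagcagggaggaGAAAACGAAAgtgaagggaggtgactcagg
Oas1a: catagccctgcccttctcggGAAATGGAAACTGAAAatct
Gbp7: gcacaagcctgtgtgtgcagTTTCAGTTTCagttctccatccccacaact
Socs1: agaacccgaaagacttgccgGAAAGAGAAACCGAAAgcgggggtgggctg
Ifit1, Oas1a and Socs1 held 2 matches each, which overlap in Oas1a and Socs1. Oas1a was at 14, 15.4, 14.9 and 15.2 CPM in controls and at 22.2, 17.4, 18.7 and 17.9 CPM in injured libraries, so injured 1 was the highest injured library for Oas1a and the lowest for Rsad2. Ifit3 was at 0.951 to 2.56 CPM in controls and at 2.33, 9.79, 11.3 and 5.04 CPM in injured libraries, and Oas3 at 0.745 to 3.64 CPM and at 2.33, 9.25, 14.8 and 6.58 CPM. The 10 motifs searched in 7 lists were chosen after the lists' results had been seen.

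Chemokines and NF-kB genes depended on which controls were used. In 316 genes WT controls 1 and 2 were both at least 2-fold above controls 3 and 4, and in 124 of these all 4 injured libraries lay between the control pairs. The reverse, with controls 3 and 4 at least 2-fold above controls 1 and 2, held for 282 genes, of which 64 had all injured libraries between. Among the lists, 11 of 17 tested chemokines, 10 of 17 inflammatory cytokines, 14 of 25 immediate early genes and 5 of 18 NF-kB genes had controls 1 and 2 higher in that way. The median log2 fold change of the chemokines was -0.29 with 4 controls, 1.44 with controls 3 and 4 alone and -0.48 with controls 1 and 2 alone. Cxcl3, a neutrophil-attracting chemokine, was at 690.3, 512, 19.6 and 29.6 CPM in controls and at 71.2, 158, 194 and 70.8 CPM in injured libraries. All injured libraries were thus above controls 3 and 4 and below controls 1 and 2 for Cxcl3. Nfkb2, an NF-kB subunit, was at 591, 571, 213 and 281 CPM in controls and at 254, 290.4, 329 and 311 CPM in injured libraries. Cxcl16, a scavenger receptor and chemokine, was at 123, 107, 40.7 and 45.3 CPM in controls and at 35.6, 56.3, 56.8 and 46.7 CPM in injured libraries. With controls 3 and 4 alone the log2 fold changes of Cxcl3, Nfkb2 and Cxcl16 were 2.32, 0.25 and 0.17, and with 4 controls they were -1.34, -0.48 and -0.69. No direction in WT is given for these lists. What set controls 1 and 2 apart was not tested.

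**Figure D5:**
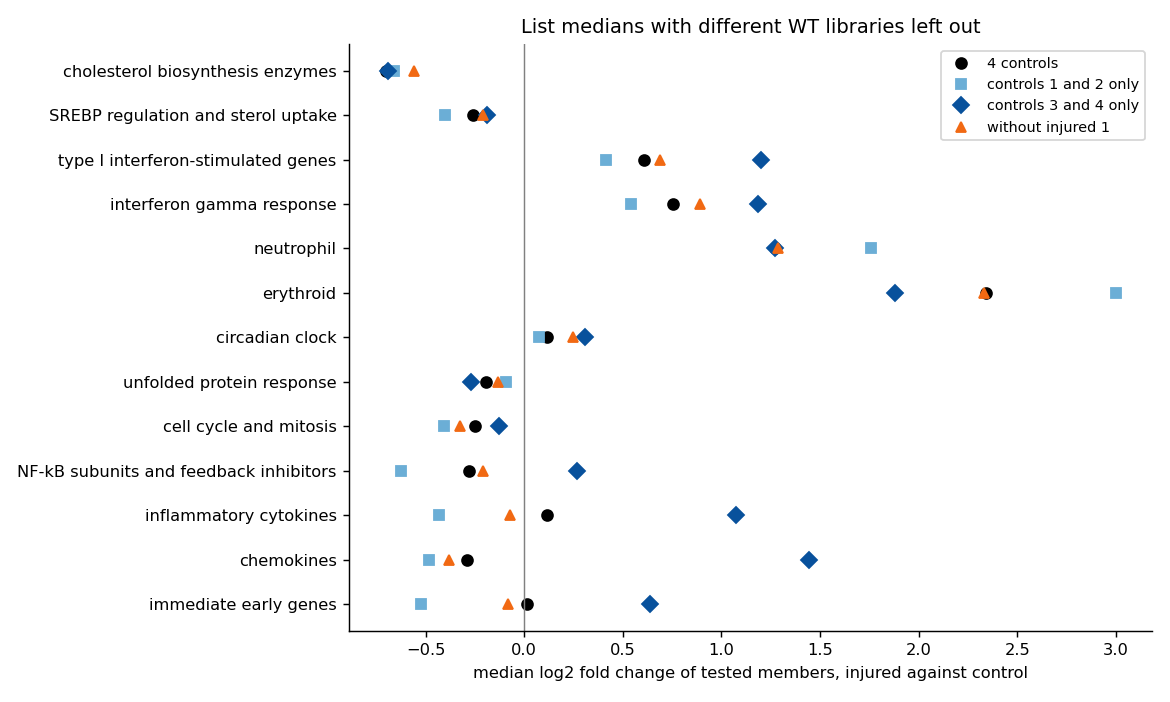
Median log2 fold change of each list's tested members in WT with all 4 controls (circles), controls 1 and 2 only (squares), controls 3 and 4 only (diamonds), or all controls but without injured 1 (triangles). The cholesterol, type I interferon-stimulated, interferon gamma response, neutrophil and erythroid lists keep 1 side of 0 in all of these, while the chemokine, cytokine, NF-kB and immediate early lists lie on opposite sides of 0 with the 2 control pairs.

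Within the cytokine list 2 of 17 tested members were higher at an unadjusted p under 0.05, and neither overlapped between groups. Il15, which sustains natural killer and memory T cells, was at 1.81, 1.75, 2.24 and 2.35 CPM in controls and at 4.29, 3.35, 4.04 and 3.44 CPM in injured libraries. Tnfsf13b, the B cell survival factor BAFF, was at 3.48, 3.16, 2.03 and 2.22 CPM in controls and at 6.95, 4.00, 5 and 5.85 CPM in injured libraries. On the log2 scale the fold changes were 0.89 for Il15 (SE 0.19, edgeR quasi-likelihood adjusted p = 0.149) and 1.0 for Tnfsf13b (SE 0.28, adjusted p = 0.224). Ccl6, a chemokine made by macrophages at rest, was at 1687 to 2744 CPM in controls and at 2484 to 4540 CPM in injured libraries, with overlap. Of 17 Toll-like receptor and adaptor genes and 17 interferons, receptors and sensors tested, 0 had an unadjusted p under 0.05 in the edgeR fit.

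Markers of other cells were measured next, as the lavage could hold more than macrophages. In bulk RNA, more cells of a type and more RNA per cell cannot be told apart. Erythroid markers were higher in all injured libraries. Their summed level, on library totals, was 99.5, 15.7, 71.2 and 174 CPM in controls and 559, 360, 762 and 473 CPM in injured libraries, a ratio of the means of 5.97 (two-sided exact permutation p = 0.0286, the smallest that 4 against 4 allows; 0.2 after Benjamini-Hochberg adjustment over 14 marker lists). Of 16 members 9 were tested, of which 7 were higher at an unadjusted p under 0.05, with a median log2 fold change of 2.34 in WT and -0.61 in TLR3-KO. Beta-s, the beta globin gene now named Hbb-bs, held 71.1% of the sum and was at 75.7, 9.33, 51.2 and 103 CPM in controls and 397, 249.6, 545 and 326 CPM in injured libraries. Alas2, the first enzyme of heme synthesis in red cells, was at 22, 3.11, 11.8 and 43.0 CPM in controls and 104, 72.7, 129 and 100.1 CPM in injured libraries. Neither overlapped, and control 2 was the lowest for both. The log2 fold changes were 2.67 for Beta-s (SE 0.72, edgeR quasi-likelihood adjusted p = 0.202) and 2.34 for Alas2 (SE 0.74, adjusted p = 0.263). Hba-a1 was at 0 in all WT libraries, and how reads of near-identical globin copies were assigned was not stated in the sources used here.

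Neutrophil markers were higher in injured 2 and 3 above all. Their summed level on library totals was 401, 424, 356 and 415 CPM in controls and 498, 750, 1021 and 439 CPM in injured libraries, a ratio of 1.70 (two-sided exact permutation p = 0.0286, adjusted 0.2). On TMM-scaled CPM the ratio was 1.56 (exact permutation p = 0.0857), with injured 4, at 437 CPM, below controls 1 and 2, at 447 and 469.9 CPM. Clec4d, which macrophages express as well, held 23.3% of this sum, and Elane was at 0 in every WT library. Of 26 members 21 were tested, of which 12 were higher and 1 lower at an unadjusted p under 0.05, but only 1 did not overlap between groups, and the median log2 fold change was 1.27. S100a8, a calgranulin, was that member, at 3.89, 4.12, 6.45 and 10.1 CPM in controls and 15.2, 48.5, 50.1 and 14.3 CPM in injured libraries. S100a9, its partner, was at 1.14, 1.24, 0.514 and 5.72 CPM in controls and 1.53, 50.3, 63.8 and 10.9 CPM in injured libraries. Slfn4, an interferon-responsive myeloid gene, was at 4.66, 4.68, 6.22 and 16.2 CPM in controls and 9.63, 89.7, 156 and 28.5 CPM in injured libraries. For S100a9 and Slfn4 injured 1 lay inside the control range, control 4 was the highest control, and injured 2 and 3 were far above the rest. Cxcr1, a receptor for neutrophil-attracting chemokines, was the member that was lower, at 28.5 to 47.2 CPM in controls and 21.8 to 30.8 CPM in injured libraries. The part of neutrophil RNA in the interferon values, which were also highest in injured 2 and 3 for Rsad2 and Oas2, was not tested.

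Markers of recruited monocytes and macrophages gave no difference in their sum, at 1040 to 1729 CPM in controls and 982 to 1926 CPM in injured libraries on library totals. Fn1 held 42.1% of that sum. Of 21 tested members, 15 had a log2 fold change above 0, and the median was 0.37. For 3 of the 21 every injured library lay above every control (2.02% of all genes). At an unadjusted p under 0.05, 4 were higher and 0 lower. Ly6i, a monocyte surface protein, was at 0.180 to 0.617 CPM in controls and 0.715 to 2.50 CPM in injured libraries, without overlap. Ccr2, the receptor by which monocytes leave the marrow, was at 0.961 to 2.02 CPM in controls and 1.51 to 4.70 CPM in injured libraries, with overlap. Itgam, CD11b, was at 4.76 to 9.89 CPM in controls and at 4.04, 23.2, 31.3 and 13.4 CPM in injured libraries, with injured 1 the lowest library. Among the 27 tested alveolar macrophage markers, 0 were higher and 2 lower at that p. T cell, B cell, natural killer, eosinophil and mast cell, dendritic cell, platelet, airway and endothelial lists had 0 members past it. The numbers of members tested were 18, 9, 7, 3, 11, 8, 9 and 4, in that order. The natural killer list had all 7 tested members above 0 with a median log2 fold change of 1.0. That median was 0.10 with controls 3 and 4 alone and 1.66 with controls 1 and 2 alone. The natural killer sum was 1.42 to 5.04 CPM in controls and 3.21 to 6.24 CPM in injured libraries on library totals. Some of those sums rest on 1 gene that macrophages may express: Siglec5 held 99.8% of the eosinophil, basophil and mast cell sum, in which Epx was at 0, Vwf 96.6% of the endothelial sum, and Cd2 95.0% of the T cell sum.

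Markers of alveolar type 2 epithelium, the cells that make surfactant, were mixed in direction. Of 10 tested members 4 had a log2 fold change above 0, 3 were lower and 0 higher at an unadjusted p under 0.05, and these 3 did not overlap. With controls 3 and 4 alone 1 was lower at that p and the median log2 fold change was -0.12. Lyz1, a lysozyme of both cell types, held 95.5% of the list's sum, which was 1811 to 2357 CPM in controls and 2332 to 2879 CPM in injured libraries on library totals. Sftpc, surfactant protein C, was at 10.04, 7.79, 5.29 and 5.80 CPM in controls and 3.25, 4.11, 4.73 and 2.54 CPM in injured libraries. Sftpb, surfactant protein B, was at 0.455 to 1.12 CPM in controls and 0.240 to 0.395 CPM in injured libraries. Neither overlapped. Fold changes on the log2 scale were -0.99 for Sftpc (SE 0.44) and -1.11 for Sftpb (SE 0.41), with edgeR quasi-likelihood adjusted p-values of 0.445 and 0.355. In TLR3-KO the list's median log2 fold change was 0.90, against -0.55 in WT (type 1 epithelium: 0.99 against -0.28, with 1 of 8 members lower in WT at an unadjusted p under 0.05), and 5 of the 10 had an unadjusted p under 0.05 for the difference between genotypes (17.8% of all genes did).

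Several maintenance programmes had more members lower than higher, with small fold changes. In the unfolded protein response list, 8 of 24 were lower and 0 higher at an unadjusted p under 0.05, but 3 of 24 without injured 1. Pdia6, a disulfide isomerase, was at 677 to 735 CPM in controls and 453 to 614 CPM in injured libraries, and Hsp90b1, an endoplasmic reticulum chaperone, at 1215 to 1348 and 751 to 1133 CPM. Both had no overlap, with injured 1 lowest. In the lysosome list 7 of 32 were lower and 0 higher. Ctsb, cathepsin B, was at 4642 to 4861 CPM in controls and 3244 to 4352 CPM in injured libraries, and Cd68, a lysosomal membrane protein of macrophages, at 1485 to 1644 and 1101 to 1364 CPM. In the list of glutathione and NRF2 genes 6 of 30 were lower and 0 higher. Gstm1, a glutathione transferase, was at 783, 878, 1110 and 863 CPM in controls and 514, 695, 539 and 716 CPM in injured libraries, and G6pdx, which supplies NADPH, at 404 to 496 and 212 to 353 CPM. Of the iron genes, Ftl1, the ferritin light chain, was at 32142 to 42867 CPM in controls and 24962 to 30438 CPM in injured libraries. None of these 7 genes overlapped between groups on TMM-scaled CPM, but on library totals at least Ctsb, Cd68 and Ftl1 did. The log2 fold changes of the 7 lay between -0.56 for Gstm1 and -0.28 for Cd68. For Ftl1 the log2 fold change was -0.31 with an edgeR quasi-likelihood adjusted p of 0.41.

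Heat shock chaperones were mixed. Of 14 tested, 4 were higher and 1 lower at an unadjusted p under 0.05, 6 had a log2 fold change above 0, and the median was -0.05. Hspa1b, an inducible HSP70, was at 34.6, 30.8, 4.47 and 24.4 CPM in controls and 20.2, 84.4, 101 and 81.6 CPM in injured libraries. Hspa1a, its near-identical neighbour, was at 36.4, 32.4, 5.19 and 29.0 CPM in controls and 20.5, 91.7, 104 and 73.4 CPM in injured libraries. Reads of the pair may be shared between them, and in both injured 1 was inside the control range and control 3 far below the other controls.

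Mitotic genes were lower in injured 2 and 3 above all. Of 40 cell cycle genes tested, 8 were lower and 0 higher at an unadjusted p under 0.05, with a median log2 fold change of -0.25, and none was free of overlap. Injured 2 and 3 were below all controls for 32 and 28 of the 40, injured 1 for 12 and injured 4 for 0, while injured 1 and injured 4 were each above all controls for 10. Plk1, a mitotic kinase, was at 23.2, 22.8, 18.3 and 12.5 CPM in controls and 11, 7.39, 8.92 and 19.2 CPM in injured libraries. Kif20a, a kinesin of cell division, was at 26.8, 29.2, 32.0 and 21.7 CPM in controls and 15.9, 13.2, 15.2 and 26.6 CPM in injured libraries. In both, injured 4 lay inside the control range. With controls 3 and 4 alone, 2 of 40 were lower and 1 higher. In TLR3-KO the median was 0.51, with 24 of 40 higher and 1 lower at an unadjusted p under 0.05. Over all genes in TLR3-KO, 12.1% were higher and 11.9% lower at that p. For the difference between genotypes 25 of 40 had an unadjusted p under 0.05 (17.8% of all genes did), none with an adjusted p under 0.05. The TLR3-KO controls include the 3 libraries with Xist, and its part in this difference was not tested.

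Other genes led the ranking by fold change or p. Ffar2, a receptor for short-chain fatty acids, was at 1.27, 1.19, 2.13 and 1.6 CPM in controls and 3.48, 3.60, 4.76 and 3.50 CPM in injured libraries. Ovol2, a zinc-finger factor of epithelia, was at 1.16, 1.19, 1.52 and 1.23 CPM in controls and 6.49, 2.92, 3.08 and 3.37 CPM in injured libraries. Rftn1, the raft protein raftlin, was at 459, 434, 372 and 388 CPM in controls and 196, 297, 263 and 256 CPM in injured libraries. All 3 had no overlap, with log2 fold changes of 1.31 (SE 0.22), 1.64 (SE 0.28) and -0.71 (SE 0.12) and an edgeR quasi-likelihood adjusted p of 0.0569 each. Frk, a kinase of the Src group, was at 33.6, 30.9, 23.7 and 19.1 CPM in controls and 11, 16, 16 and 15.2 CPM in injured libraries. Aacs, which turns ketone bodies into lipid precursors, was at 191, 177, 235 and 166 CPM in controls and 59.5, 125, 107 and 119.9 CPM in injured libraries. Frk and Aacs were lower in every injured library, with log2 fold changes of -0.88 (SE 0.17) and -0.90 (SE 0.19) and edgeR adjusted p-values of 0.072 and 0.145. Further genes with no overlap and an injured mean below 60% of the control mean were Max, the partner of MYC, at 52.3%, Etv5, an ETS factor, at 54.2%, Tmcc1, a membrane protein, at 58.1%, and Vav3, a guanine nucleotide exchange factor, at 58.6%. On the higher side were S100a6, a calcium-binding protein (log2 fold change 1.55), Slfn5, a schlafen (1.42), and Arid5a, which stabilizes inflammatory mRNA (1.30), with edgeR adjusted p-values of 0.193, 0.197 and 0.188. Bpgm, high in red cells, had a log2 fold change of 1.65, beside the erythroid sums given above. The part of red cell RNA in it was not tested.

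Set beside TLR3-KO, the WT response was similar in direction for part of the genes. In TLR3-KO, 192 genes passed the adjusted p in the same edgeR fit (1.54%), and 0 passed for the difference of the responses, where 2217 (17.8%) had an unadjusted p under 0.05 and DESeq2 called 98. Of the 784 genes higher in WT at an unadjusted p under 0.05, 481 (61.4%) were also higher in TLR3-KO, and of the 554 lower, 331 (59.7%) were also lower, against 44.3% with the same sign over all 12455 genes. For the cholesterol enzymes the median log2 fold change was -0.70 in WT and -0.36 in TLR3-KO, and 5 of 21 had an unadjusted p under 0.05 for the difference. For Hsd17b7 the values were -0.83 and -0.11 (unadjusted p of the difference 0.0029, adjusted 0.23, edgeR). Type I interferon genes had medians of 0.61 and 0.98, with 3 of 36 at that p for the difference, and interferon gamma genes 0.75 and 0.91, with 1 of 33. Rsad2 had a log2 fold change of 2.33 in WT and 3.56 in TLR3-KO, and Gbp7 0.93 and 1.09. The erythroid medians differed in direction, at 2.34 in WT and -0.61 in TLR3-KO, with 7 of 9 members at an unadjusted p under 0.05 for the difference. In TLR3-KO itself 0 of the 9 were higher and 0 lower at that p.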

How the data were processed

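RNA from lavage macrophages was sequenced as paired reads of 50 bases from TruSeq mRNA libraries, per the labels' protocols. Per the submitters' processing notes, FastQC 0.11.3, TopHat2 2.0.13, Bowtie2 2.2.1, Cufflinks and Cuffdiff 2.1.1 were used with mm10. The table deposited by the authors holds whole-number counts for 23159 gene symbols. HTSeq is named only in the table's name, and no label gives its strand setting or annotation, so antisense and overlapping genes cannot be told apart. Columns were assigned to samples by description. The series text counts 15 samples and 16 were used.

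Genes were kept by filterByExpr (minimum count 10), which left 12455 and removed 10704. All 16 libraries were fitted with 1 coefficient per group in edgeR 4.0.16 (R 4.3.3) after TMM scaling. The quasi-likelihood test with Benjamini-Hochberg adjustment and a threshold of 0.05 gave every adjusted p (common biological coefficient of variation 0.238). The fit was also run on simulated data with independent libraries, which cannot show how it behaves with the split among the WT controls. Levels per library and the overlap of groups used TMM-scaled CPM, a choice made after library totals had been tried. Marker sums used library totals and a two-sided exact permutation test. Libraries within each WT group were compared for copies, and none was one. Chi-square per degree of freedom was 10.6 for WT controls 1 and 2 and 22.1 for WT injured 2 and 3. It was 79.9 to 268 for the other pairs. Whether the closer pairs shared an animal or a batch was not tested. Alternatives used limma 3.58.1 and DESeq2 1.42.0, other scalings and filters, and left-out libraries. Positions came from GENCODE M21 and promoters from RefSeq (GRCm38.p6).

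The members, the 30 gene lists and the 14 marker lists were chosen with earlier results of these data known. Named genes were, per direction, the 12 largest fold changes with an unadjusted p under 0.05, no overlap of groups and a mean of at least 5 CPM in the higher group, the 10 lowest p-values, and up to 6 members of each list with the lowest p. Ifit1, Ifit3, Oas1a, Oas3, Rsad2 and Lss, shown for their promoters, and single genes of the marker sums were named after their values were seen. A few genes that met the rule are not reported here.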

Additional observations from a re-analysis of the deposited data

Results flagged for a closer look

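Single libraries stood apart in 24 of 242 sets of 4 libraries examined by the ratio of the gap to the range. The cutoff marks about 1 in 20 sets of independent, normally spread values by chance. The sets examined share libraries, and many genes were chosen for their results, so the count cannot be read against that rate. WT injured 1 was the library in 6 of the 24. It was low for Frk at 11 CPM (others 15.2 to 16), Rora at 11.6 CPM (15.6 to 15.9), Fasn at 69.7 CPM (157 to 164) and Hsp90b1 at 751 CPM (1103 to 1133). It was high for Ovol2 at 6.49 CPM (2.92 to 3.37) and for the summed alveolar macrophage markers at 55071 CPM (43657 to 44774). WT injured 3 was high for Ffar2 at 4.76 CPM (3.48 to 3.60).

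Among controls, WT control 3 was low for Rtp4 at 0.771 CPM (others 2.48 to 2.68), Oasl2 at 0.771 CPM (2.25 to 2.52), Rsad2 at 2.34 CPM (7.64 to 8.57) and Gbp7 at 8.27 CPM (15.6 to 16.7). The same library was high for Idi1 at 623 CPM (448 to 465), Lipa at 3126 CPM (2537 to 2622), Cd68 at 1644 CPM (1485 to 1512), Ftl1 at 42867 CPM (32142 to 33409) and the summed platelet and megakaryocyte markers at 32.5 CPM (17.0 to 18.2). WT control 4 was high for Slfn4 at 16.2 CPM (4.66 to 6.22), S100a9 at 5.72 CPM (0.514 to 1.24), the B and plasma cell sum at 32.9 CPM (0.731 to 4.24) and the endothelial and stromal sum at 86.9 CPM (43.9 to 50.1). That control was low for Rora at 17.8 CPM (20.5 to 21.0), Elovl1 at 265 CPM (299.7 to 305) and the alveolar type 2 sum at 1811 CPM (2279 to 2357). WT control 1 was low for Dbp at 1.18 CPM (1.36 to 1.37).

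Cldn18, a tight junction gene of lung epithelium, went in opposite directions in the genotypes. In WT it was at 2.19, 1.59, 1.16 and 0.855 CPM in controls and 0.460, 0.703, 0.698 and 0.753 CPM in injured libraries, all below the controls. In TLR3-KO every injured library was above every control, at 1.94 to 6.78 CPM against 0.791 to 1.90 CPM. The difference of the log2 fold changes of Cldn18, -1.15 in WT minus 1.61 in TLR3-KO, was -2.75 (edgeR quasi-likelihood unadjusted p = 0.000112, adjusted p = 0.235).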

How the results depend on the processing

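The number of genes called in WT was 2 and changed with most settings. It was 181 with DESeq2 (94 higher, 87 lower, among them 11 cholesterol enzymes and 8 type I interferon genes), 11 with RLE size factors, 34 without WT controls 3 and 4, 4653 with limma voom and quality weights, 2 with upper-quartile scaling or a filter of 5 CPM in 3 libraries, and 1 with no filter. It was 0 with robust estimation in edgeR (added after seeing the data), limma voom, the 8 WT libraries alone, or without WT controls 1 and 2. Leaving out 1 library at a time gave 0 to 10 calls: 7 without WT control 4, 10 without WT injured 2, 1 without WT injured 1 and 0 without each of the others. Genes at an unadjusted p under 0.05, 1338 in the report, numbered 875 with the 5 CPM filter, 2900 without WT controls 3 and 4, 6063 with quality weights, and 898 to 1934 with 1 library left out. The cause of these shifts was not tested, apart from the fewer genes tested under the 5 CPM filter.

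The fit with a replicate block called 0 genes, with 463 at an unadjusted p under 0.05. The numbers gave no sign of pairing: deviations of same-numbered WT libraries correlated at -0.27 to -0.12, and 0 of 8 libraries correlated best with their own number. Deviations were taken from the means of groups of 4, so these correlations cannot show whether libraries were paired. The difference of the responses between genotypes had 0 calls in every other setting and 98 with DESeq2. On library totals, 477 genes were higher and 85 lower without overlap, against 251 and 287 on TMM-scaled CPM. Without WT controls 1 and 2 the direction reversed for Cxcl16 (log2 fold change 0.17), Cxcl3 (2.32) and Nfkb2 (0.25). The other 104 of 107 single genes examined kept their direction in all 12 settings recomputed for them. Of 528 recomputed list medians 83 moved by more than the spread, and no summed marker list passed the adjusted p in any setting. With 4 libraries a group, an exact p cannot go below 0.0286. Iigp1, at 0 CPM in 2 WT controls, rests on few counts, and Tgtp2 rests on few counts in the WT controls.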

Other observations

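Gene lists not described in the report gave few differences, with no explanation weighed. Among antibacterial and acute-phase proteins, 3 of 19 tested members were higher at an unadjusted p under 0.05 in edgeR, and 6 of 19 without WT injured 1. Lcn2, which withholds iron from bacteria by binding siderophores, was at 3.10, 3.59, 0.257 and 2.03 CPM in WT controls and 0.460, 16.3, 41.3 and 8.07 CPM in WT injured libraries. Chi3l1, a chitinase-like protein, was at 0.879, 0.708, 0.308 and 2.22 CPM in controls and 0.204, 10.8, 25 and 5.94 CPM in injured libraries. In both, injured 2, 3 and 4 were above all controls and injured 1 was at or below the lower controls. Hdc, which makes histamine, had the same order, at 2.54, 2.33, 0.257 and 6.65 CPM in controls and 1.76, 26.9, 90.3 and 12.9 CPM in injured libraries.

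Oxidative phosphorylation genes showed WT injured 1 from another side: it was the highest injured library for 32 of 35 and above all controls for 30, and the list's median log2 fold change was 0.19 with it and 0.00491 without it. MHC class II genes had 0 of 16 members at an unadjusted p under 0.05, and MHC class I and immunoproteasome genes had 3 of 18 higher and 1 lower. H2-D1, a classical class I heavy chain, was at 4397 to 5127 CPM in controls and 3777 to 4248 CPM in injured libraries, without overlap, while Nlrc5, the transactivator of class I genes, was at 2.24 to 7.97 CPM and 5.21 to 16.3 CPM, with overlap. In the eicosanoid list 1 of 16 was higher, Ltb4r1, the leukotriene B4 receptor, at 0.131, 0.202, 0.257 and 0.321 CPM in controls and 0.613, 0.974, 1.16 and 0.715 CPM in injured libraries (log2 fold change 1.93, SE 0.41, edgeR quasi-likelihood adjusted p = 0.142). Glycolysis had 2 of 19 higher and 3 lower, with Pfkl, the liver-type phosphofructokinase, at 213, 184, 103 and 105 CPM in controls and 60.4, 99.4, 87.7 and 115 CPM in injured libraries. Msr1, a scavenger receptor, was at 46.8 to 75.7 CPM in controls and 33.0 to 50.0 CPM in injured libraries, with a log2 fold change of -0.64 in WT and 0.30 in TLR3-KO (unadjusted p of the difference 0.0012, adjusted 0.235, edgeR). The glucocorticoid list had 2 of 15 higher, the alternative activation list 2 of 16 higher, the iron list 2 of 16 lower, the immediate early list 1 of 25 in each direction, the receptor list 1 of 21 higher and 2 lower, and the inflammasome and cell death list 2 of 22 higher and 1 lower.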
